A study of Mus musculus with 34 samples.

Results

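CpG island methylation in the mouse colon was compared with that in the other adult tissues of the same mDIP microarray panel. The colon was represented by 2 arrays (replicates 1 and 2) of 16 adult arrays and of 34 in the whole series, and the comparison set was made of the 14 arrays of pancreas, brain, kidney, liver, lung, muscle and spleen, with 2 arrays each. All of these tissues came from mice aged 3 months, of the C57Bl/6 strain by the study's methods, and the labels name no treatment or engineered allele for them. Both colon arrays and both pancreas arrays were labelled male and both lung arrays female, while in the other 5 tissues replicate 1 was female and replicate 2 male. The remaining arrays held embryos, ES cells and their derivatives, teratomas and pancreatic cells, and served only for a description of levels. Members were chosen by the tissue label alone.

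In mDIP, an antibody to 5-methylcytidine pulls methylated fragments out of sheared DNA, so that they are enriched in the bound DNA relative to the input. CpG islands, short regions rich in CG dinucleotides that often cover gene starts, are unmethylated in most somatic tissues, whereas islands inside genes or between them vary more between cell types. The colon is lined by a rapidly renewing epithelium of absorptive, goblet and enteroendocrine cells on a layer of smooth muscle, connective tissue, enteric neurons and immune cells. DNA of a whole organ mixes these cells, and a larger share of methylated cells cannot be told apart from more methylation per cell.

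Each array held bound DNA labelled with Cy5 and input DNA labelled with Cy3. The log10 ratio of bound over input was turned into a Z-score over the probes of an array, and the island methylation score (IMS) was the mean Z-score over at least 3 neighbouring probes. An IMS below 0 was taken as unmethylated and an IMS above 0.75 as methylated, the thresholds of the study. The comparison rests on 13273 autosomal islands of 3 to 40 probes (median 5) that span a median of 657 bases. The median input signal was 4.39 and 3.11 times its background on the colon arrays and 3.07 to 6.98 times on the others. The median bound signal was 2.04 and 2.09 times its background on the colon arrays and 1.54 to 5.59 times on the others. The number of arrays also limits the precision. On the X chromosome, 378 islands had a mean IMS of 0.918 to 1.87 on the 7 adult arrays labelled female and of 0.132 to 0.294 on the 9 labelled male, so the sex labels held.

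Some properties of the arrays bear on every value below. Both colon arrays were scanned on 1 day that they shared with no other array, so scan day and colon cannot be told apart. Across islands, the deviations of both colon arrays from the mean of all adult arrays had a correlation of 0.607, against 0.233 for the pancreas pair and -0.399 to -0.162 for the pairs of the other 6 tissues. These are descriptions over 13273 islands that share probes, base composition and arrays. In the 6 tissues other than colon and pancreas, replicate 1 had a grid of 97651 probes and was scanned on 1 shared day. Replicate 2 of these tissues had a grid of 88737 probes and other scan days. All colon and pancreas arrays had the larger grid. The part of grid and scan day in these correlations was not tested. For arrays of different tissues scanned on the same day, 19 pairs, the correlation ran from -0.167 to 0.449 with a median of 0.0883. The labels do not say whether the 2 colon arrays came from separate mice. The p-values rest on the spread between replicate arrays pooled over all adult tissues, not on that of the colon pair alone. This spread may be technical, and in 6 of the tissues it includes differences of grid and scan day that the colon pair does not have.

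The first comparison asked which islands carried more or less methylation in colon than in the average of the other adult tissues. One mean per tissue was fitted to every island with limma, which shares the spread across islands, and colon was compared with the unweighted mean of the other 7 tissues. At a Benjamini-Hochberg adjusted p under 0.05, 107 islands differed, 0.806% of those tested. Of these, 100 were higher in colon (0.753%) and 7 were lower (0.0527%). The higher share of the calls, 93.5%, was 65.2% with male arrays alone (368 higher, 196 lower) and 64.7% with arrays of the larger grid alone (617 and 336). The differences of the higher islands ran from 0.567 to 2.94 IMS units with a median of 1.00, and 12 exceeded 2. Those of the lower islands ran from -0.972 to -0.671. At an unadjusted p under 0.05 there were 803 higher and 602 lower islands, and the median difference over all islands was -0.0237.

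**Figure D1:**
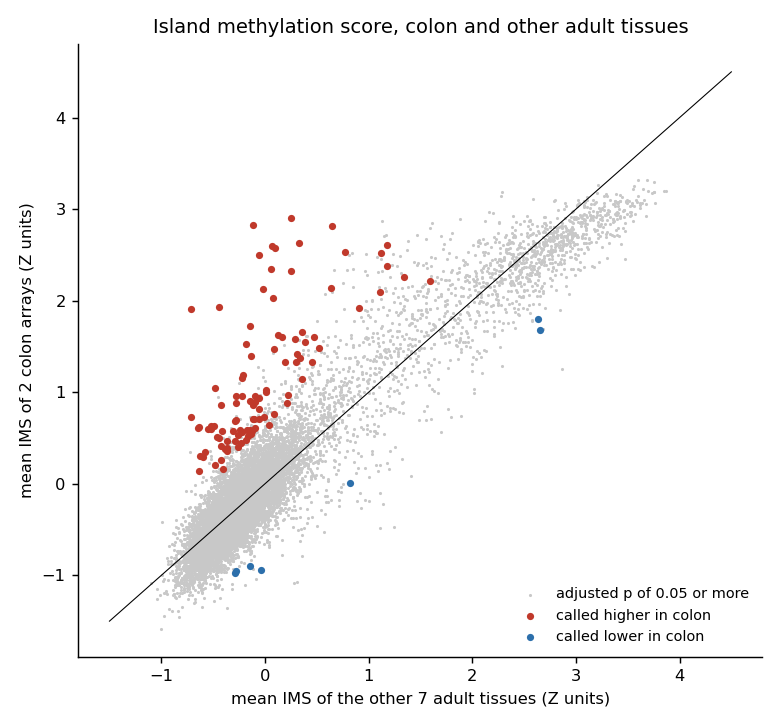
Mean IMS of the 2 colon arrays (vertical axis, Z-score units) against the mean of the 7 other adult tissues (horizontal axis, Z-score units) for 13273 islands, 1 point per island, with the called islands coloured by direction. The 100 islands called higher lie mostly over low values of the other tissues, and the 7 called lower lie below the diagonal.

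Both colon arrays lay above all 14 other arrays at 514 islands (3.87% of all) and below all of them at 453 (3.41%). This order turned with the scaling, to 260 above and 366 below with median and MAD in the Z-score and to 355 and 541 with log2 ratios. Among the called islands, both colon arrays lay above all others at 95 of the 100 higher ones and below all others at 7 of the 7 lower ones. The same arrays made the calls, so these shares follow largely from the choice of islands and are a description. The colon mean was above 0.75 at 57 of the higher islands, and the mean of the other tissues was below 0 at 63. At 25 of them at least 1 other tissue was itself above 0.75.

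The count fell when either colon array was left out, a fit in which the lone colon array is assumed to vary like the arrays of the other tissues. Without colon replicate 1, 7 islands were called, all higher, and the array left out was above all 14 others at 7 of 7. Without colon replicate 2, 10 were called, and the array left out was above all others at 9 of 10. Dnm1, Foxa2, Llgl2, Nrn1, Qk and Vipr1 held the named islands among the 7, and Mnx1, Pax8 and Tmem132d were added among the 10. Over all 13273 islands the first colon array was above all 14 others at 1002 and the second at 1123. Both were scanned on the same day, so the array left out cannot tell the tissue from the scan day. With scan day as a random block 50 islands were called, with median and MAD in the Z-score 12, and with normexp background correction 3.

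The share of islands called higher varied with their position relative to genes. Of 8238 islands at promoters 36 were called higher (0.437%), compared with 38 of 2913 inside a gene (1.30%), 6 of 405 downstream of a gene (1.48%) and 20 of 1717 without a gene name (1.16%). None of the promoter islands differed by more than 2, whereas 9 inside a gene and 2 downstream did. Of the 36 at promoters, 28 had probes on both sides of the start. No test was made between the classes.

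The promoter sequences below belong to 5 of the 8 named genes whose called island had probes on both sides of the start. These 5 have a single start in the promoter table used here. The sequences show how CG-rich the DNA around each start was. They are not the whole measured islands, whose probes reached further past the start. Each runs from 250 bases before to 50 bases after the start, 5′ to 3′ in the direction of transcription, from RefSeq on GRCm38.p6. Capitals mark every CG dinucleotide. Qk and Nkx1-2 were higher in colon, and Vcpkmt, Mns1 and Pthlh were lower.
Qk chr17:10319312-10319611 (minus strand): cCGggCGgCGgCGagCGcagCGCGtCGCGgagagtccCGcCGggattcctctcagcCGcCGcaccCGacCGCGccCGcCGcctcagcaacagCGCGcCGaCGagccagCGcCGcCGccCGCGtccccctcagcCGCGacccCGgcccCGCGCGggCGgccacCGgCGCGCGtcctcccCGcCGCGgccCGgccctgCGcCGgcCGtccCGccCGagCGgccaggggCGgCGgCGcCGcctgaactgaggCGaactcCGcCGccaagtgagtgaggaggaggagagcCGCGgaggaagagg
Nkx1-2 chr7:132599588-132599887 (minus strand): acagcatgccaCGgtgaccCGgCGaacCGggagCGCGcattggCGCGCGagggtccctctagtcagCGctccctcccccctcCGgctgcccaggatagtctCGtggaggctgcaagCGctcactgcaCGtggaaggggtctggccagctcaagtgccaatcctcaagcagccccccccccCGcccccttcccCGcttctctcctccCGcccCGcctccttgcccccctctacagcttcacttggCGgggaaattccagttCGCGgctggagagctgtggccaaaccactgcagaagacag
Vcpkmt chr12:69582968-69583267 (minus strand): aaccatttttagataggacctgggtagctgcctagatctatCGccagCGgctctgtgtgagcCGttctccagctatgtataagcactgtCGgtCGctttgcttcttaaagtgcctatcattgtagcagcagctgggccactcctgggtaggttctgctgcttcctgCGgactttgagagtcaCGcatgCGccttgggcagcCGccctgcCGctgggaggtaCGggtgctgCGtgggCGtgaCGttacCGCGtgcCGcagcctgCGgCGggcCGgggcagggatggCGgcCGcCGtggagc
Mns1 chr9:72438279-72438578 (plus strand): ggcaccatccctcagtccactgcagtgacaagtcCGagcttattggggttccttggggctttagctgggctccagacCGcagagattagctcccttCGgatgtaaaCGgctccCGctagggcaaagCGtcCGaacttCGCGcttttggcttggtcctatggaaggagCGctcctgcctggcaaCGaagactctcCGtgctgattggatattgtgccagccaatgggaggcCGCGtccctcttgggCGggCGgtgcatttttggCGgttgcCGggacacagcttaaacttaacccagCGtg
Pthlh chr6:147263964-147264263 (minus strand): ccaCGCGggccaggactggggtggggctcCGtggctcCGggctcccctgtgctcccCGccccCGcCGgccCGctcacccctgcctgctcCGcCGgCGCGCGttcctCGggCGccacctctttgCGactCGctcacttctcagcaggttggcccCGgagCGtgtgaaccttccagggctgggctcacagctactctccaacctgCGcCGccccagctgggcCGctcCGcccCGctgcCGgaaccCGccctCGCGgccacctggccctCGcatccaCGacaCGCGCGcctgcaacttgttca

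The Qk promoter holds 57 CG, a number reached by 0.152% of 32851 promoters in the table. That of Pthlh holds 33 (reached by 8.56%), that of Vcpkmt 23 (21.5%), that of Nkx1-2 21 (24.8%) and that of Mns1 19 (28.1%), and the median promoter holds 7. The Nkx1-2 promoter, higher in colon, thus holds fewer CG than those of Pthlh and Vcpkmt, which were lower.

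The islands with the largest differences were named only where both colon arrays lay beyond all others. Their lack of overlap was therefore set by the choice. The developmental transcription factors are described first, several of which were named through the gene lists. Foxa2, a forkhead factor of the endoderm, had 2 called islands. At the one downstream of the gene (mm9 chr2:147864276-147864668, 8059 to 8407 bases past the start) the IMS was 1.97 and 1.84 on the colon arrays and -0.988, -0.726 and -0.237 at the lowest, median and highest of the others. Every other adult array was unmethylated there. The difference was 2.62 ± 0.119 (SE), with a limma Benjamini-Hochberg adjusted p of 4.42e-07. At the 24-probe island over the start and body of Foxa2 the colon arrays reached 0.646 and 0.513, above the highest other array at -0.182, and the difference was 0.998 (limma Benjamini-Hochberg adjusted p = 0.00425).

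Pitx1, a homeodomain factor of hindlimb and pituitary development, also had 2 called islands. Inside the gene (mm9 chr13:55926768-55928123) the colon arrays were at 2.75 and 2.39, and the others at -0.395, -0.0725 and 1.02 (lowest, median, highest). The groups did not overlap, as the choice of this island required, with a difference of 2.47 ± 0.293 (limma Benjamini-Hochberg adjusted p = 0.00232). At the island upstream, at -5001 to -4065 bases relative to the start, the colon arrays were at 0.785 and 0.939, above the highest other array at 0.162, with a difference of 1.29 ± 0.189 (limma Benjamini-Hochberg adjusted p = 0.00776).

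Pax8, a paired-box factor of kidney and thyroid, had an IMS of 2.92 and 2.27 in colon at an island inside the gene (mm9 chr2:24329568-24330037). The others ran from -0.397 over a median of 0.0690 to 0.912, so that the groups were apart, and the difference was 2.53 ± 0.254 (limma Benjamini-Hochberg adjusted p = 5.25e-04). Irx1, an Iroquois homeobox factor, was at 1.08 and 1.72 in colon and between -0.752 and 0.264 elsewhere, and the difference of 1.54 ± 0.269 had a limma Benjamini-Hochberg adjusted p of 0.0212, which became 0.0747 with scan day as a random block. Its neighbour in the same family, Irx2, was at 0.569 and 1.20 against a highest other value of 0.229 over 19 probes, but its adjusted p of 0.0548 by limma with Benjamini-Hochberg missed the threshold.

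At other factors the colon shared the high value with the pancreas. Mnx1, a homeodomain factor of motor neurons and pancreatic β cells, was at 2.70 and 1.96 in colon inside the gene (mm9 chr5:29800508-29800983), while the others ran from -0.961 over -0.0280 to 2.84, the highest being a pancreas array. The pancreas mean of 2.76 exceeded both colon arrays, and the difference of colon from all 7 tissues was 2.08 ± 0.278 (limma Benjamini-Hochberg adjusted p = 0.00506). Gata4, a zinc finger factor of endoderm and heart, was at 1.42 and 2.03 at an island upstream (-6548 to -6279 bases relative to the start), and the others ran from -0.760 over -0.411 to 1.59, again a pancreas array. The groups overlapped there, with a difference of 1.87 ± 0.259 and a limma Benjamini-Hochberg adjusted p of 0.00545. The island over the start of Gata4 differed by -0.103 and was not called.

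Pdx1, the homeobox factor of pancreas and duodenum, was at 0.859 and 0.518 in colon and at -0.689, -0.251 and 0.120 on the lowest, median and highest other array. No other adult array, pancreas included, reached the colon, and the difference was 0.976 ± 0.166 (limma Benjamini-Hochberg adjusted p = 0.0179). Its other scored island was at 1.17 and -0.619 on the colon arrays and was not called (limma Benjamini-Hochberg adjusted p = 0.407). Nkx1-2, a homeobox factor of the caudal embryo, was at 1.06 and 0.863 across the start shown above and at most 0.235 elsewhere, with a difference of 1.24 ± 0.212 (limma Benjamini-Hochberg adjusted p = 0.0186).

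Among the Hox genes, which pattern the head-to-tail axis, Hoxb4, Hoxb5 and Hoxd11 each had 1 island called higher in colon. Their other scored islands differed by -0.183, 0.273 and -0.251 and were not called. Upstream of Hoxb4 the colon arrays were at 1.28 and 1.02 and the others at -0.796, -0.223 and 0.425 (lowest, median, highest). At Hoxb5 the colon arrays were at 0.441 and 0.634, against at most 0.115. At Hoxd11 they were at 0.651 and 0.534, against at most 0.237. The groups were apart at all 3, with differences of 1.38 ± 0.236, 0.798 ± 0.145 and 0.735 ± 0.124 (limma Benjamini-Hochberg adjusted p = 0.0186, 0.0242 and 0.0167). With scan day as a random block those of Hoxb4 and Hoxb5 became 0.0638 and 0.0816. Of these 3 called islands, that of Hoxb4 passed 0.75 on both colon arrays, and the others on neither.

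Amn, which with cubilin takes up vitamin B12 bound to intrinsic factor, had a 17-probe island (mm9 chr12:112512257-112514145) at 3.08 and 2.72 in colon and at -0.388, 0.0428 and 1.89 (lowest, median, highest) elsewhere, the highest being a spleen array. The difference was 2.65 ± 0.452 (limma Benjamini-Hochberg adjusted p = 0.0183), and the colon arrays stood above all others, as the choice of this island required. Baiap2l2, a membrane-bending protein of epithelial cell contacts, was at 2.75 and 2.51 in colon and at -0.377, 0.210 and 1.72 elsewhere, with a difference of 2.30 ± 0.450 (limma Benjamini-Hochberg adjusted p = 0.0346). Marveld3, a tight junction protein, was at 2.24 and 1.82 in colon and at -0.664, -0.177 and 1.53 elsewhere, the highest being a pancreas array, with a difference of 1.95 ± 0.362 (limma Benjamini-Hochberg adjusted p = 0.0265). With scan day as a random block the adjusted p of these 3 became 0.0799, 0.153 and 0.124.

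B3gnt3, a glycosyltransferase that extends mucin-type sugar chains, was at 3.095 and 2.54 in colon inside the gene, above others at -0.414, 0.762 and 1.39, with a difference of 2.17 ± 0.395 (limma Benjamini-Hochberg adjusted p = 0.0246, and 0.0657 with scan day as a random block). Its promoter island, chosen after its values were seen, lay the other way. There the colon arrays were at -0.455 and -0.515, below all others at 0.229, 1.19 and 1.77, although the difference of -1.59 ± 0.340 was not called (limma Benjamini-Hochberg adjusted p = 0.0548).

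**Figure D2:**
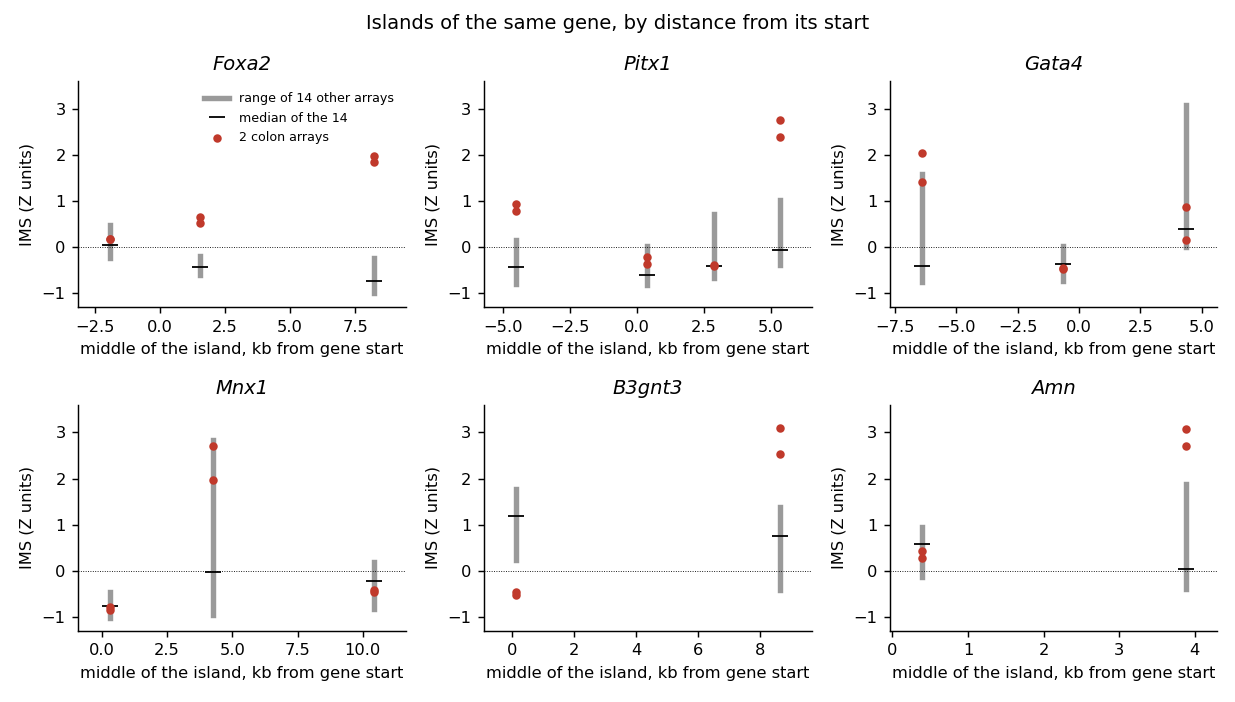
IMS (vertical axis, Z-score units) of each scored island of Foxa2, Pitx1, Gata4, Mnx1, B3gnt3 and Amn against the distance of its middle from the gene start (horizontal axis, kb), with the 2 colon arrays in red, the range of the 14 other adult arrays as a grey line and their median as a bar. The colon arrays lie above the grey line at both called islands of Foxa2 and of Pitx1 and at those of B3gnt3 and Amn, below it at the uncalled start of B3gnt3 (-0.455 and -0.515), and within it at the other uncalled islands of these 6 genes.

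Vipr1, a receptor of vasoactive intestinal peptide, was at 2.51 and 2.18 in colon at an island inside the gene (mm9 chr9:121578393-121578691). The others were at -0.592, -0.130 and 1.83, the highest being a pancreas array, and the difference was 2.29 ± 0.193 (limma Benjamini-Hochberg adjusted p = 1.49e-04). Ephb2, a receptor tyrosine kinase of the crypt base, was at 2.55 and 2.20 at 1 of its 4 islands, where the others were at 0.220, 1.14 and 2.84. The groups overlapped, and the difference of 1.20 ± 0.243 had a limma Benjamini-Hochberg adjusted p of 0.0432, which became 0.153 with scan day as a random block. The other 3 Ephb2 islands differed by -0.290 to -0.00280 and were not called.

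**Figure D3:**
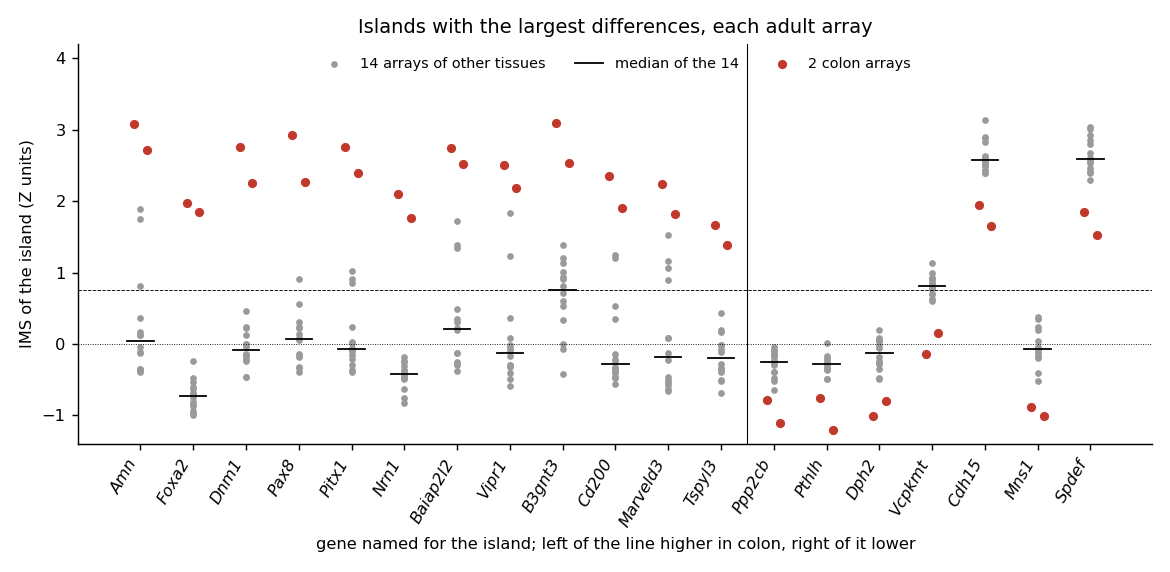
IMS (vertical axis, Z-score units) of the 12 islands with the largest higher differences and of the 7 lower ones, with the 2 colon arrays in red, the 14 arrays of the other adult tissues in grey and their median as a bar; dotted and dashed lines mark 0 and 0.75. Islands were chosen with both colon arrays outside the range of the others, and at Foxa2 and Nrn1 every grey point lies below 0.

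Dnm1, the dynamin of synaptic vesicle recycling, was at 2.76 and 2.25 in colon inside the gene (mm9 chr2:32167514-32168478), against -0.458, -0.0901 and 0.457 elsewhere. Both colon arrays stood above all others, as the choice of this island required. The difference was 2.57 ± 0.181 (limma Benjamini-Hochberg adjusted p = 2.59e-05). Nrn1, the neurite-promoting protein neuritin, was at 2.10 and 1.77 downstream of the gene (mm9 chr13:36816445-36816778) against -0.824, -0.425 and -0.179, and all the other arrays were unmethylated there. The difference was 2.38 ± 0.149 (limma Benjamini-Hochberg adjusted p = 9.38e-06).

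Qk, an RNA-binding protein of myelinating and many other cells, had its called island across the CG-dense start shown above (mm9 chr17:10512489-10513269). Its IMS was 1.06 and 1.05 in colon and -0.738, -0.492 and -0.0635 at the lowest, median and highest of the others. The groups were apart by 1.53 ± 0.142 (limma Benjamini-Hochberg adjusted p = 3.28e-04). Cd200, a membrane glycoprotein that restrains myeloid cells, was at 2.35 and 1.91 in colon just past its start, against -0.554, -0.286 and 1.25, the highest being a brain array. The difference was 2.15 ± 0.323 (limma Benjamini-Hochberg adjusted p = 0.00858).

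Zpbp, a sperm acrosome protein, was at 0.720 and 1.04 in colon and at most 0.0296 elsewhere, a difference of 1.15 ± 0.180 (limma Benjamini-Hochberg adjusted p = 0.0105). Tspyl3, of the nucleosome assembly protein family, was at 1.66 and 1.39 in colon and at most 0.438 elsewhere, a difference of 1.70 ± 0.228 (limma Benjamini-Hochberg adjusted p = 0.00506). The largest difference of all, 2.94 ± 0.276, was at an island without a gene name (mm9 chr4:154416890-154417639), where the colon arrays were at 2.96 and 2.70 and the others at -0.705, -0.279 and 1.84. This island was chosen after its values were seen, and its limma Benjamini-Hochberg adjusted p was 3.28e-04.

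Some other called islands are given as examples, chosen after their values were seen. Calb2, the calcium-binding protein calretinin, was at 0.822 and 0.629 in colon at its promoter and at -1.19, -0.690 and -0.229 (lowest, median, highest) elsewhere, a difference of 1.43 ± 0.197 (limma Benjamini-Hochberg adjusted p = 0.00545). Grm7, a metabotropic glutamate receptor, was at 0.554 and 0.672 against at most -0.2502, a difference of 1.26 ± 0.148 (limma Benjamini-Hochberg adjusted p = 0.00232). All other adult arrays were unmethylated at both.

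The serotonin receptor gene Htr1a (0.379 and 0.211), the vasopressin receptor gene Avpr1a (0.328 and 0.692), the GABA receptor subunit gene Gabra5 (0.764 and 0.653) and the potassium channel gene Kcnk9 (0.520 and 0.259) had colon values below or near 0.75, with the highest other arrays at -0.207, -0.180, 0.454 and -0.0494. The protocadherin gene Pcdh17, over 21 probes, was at 0.694 and 0.513 against at most -0.0927, and Cbln4, which encodes a secreted synapse organiser, was at 0.974 and 0.222 against at most -0.194. The groups were apart at each of these 6 islands. The RNA-binding protein gene Elavl2 passed 0.75 on both colon arrays, at 0.885 and 0.893, with at most 0.392 elsewhere.

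Among called islands of genes with other roles, again chosen after their values were seen, Llgl2, a cell polarity protein of epithelia, had one of the smallest errors. Its 15-probe island downstream of the gene was at 1.40 and 1.43 in colon and at -0.164, 0.321 and 0.810 elsewhere, a difference of 1.11 ± 0.109 (limma Benjamini-Hochberg adjusted p = 4.82e-04). Cdh3, the placental cadherin of epithelia, was at 0.480 and 0.342 in colon and at most -0.155 elsewhere. Tradd, an adaptor of the TNF receptor, was at 2.83 and 2.39 in colon, where the median other array was itself methylated at 1.29 and the highest reached 1.87. The neighbouring mesoderm factors Mesp1 and Mesp2 were both higher, at 0.575 and 0.654 for Mesp1 (at most 0.122 elsewhere) and at 1.67 and 1.54 for Mesp2 (at most 1.16). Dio3, the deiodinase that inactivates thyroid hormone, was at 0.605 and 0.653 at its promoter and at most -0.196 elsewhere, a difference of 1.12 ± 0.145 (limma Benjamini-Hochberg adjusted p = 0.00450).

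Of the 7 lower islands, 2 were methylated on every adult array, 4 had a negative IMS on the median array of the other tissues too, and Vcpkmt lay between these. Spdef, an ETS factor of goblet cells, was at 1.85 and 1.52 in colon inside the gene and at 2.29, 2.60 and 3.04 elsewhere, a difference of -0.972 ± 0.174 (limma Benjamini-Hochberg adjusted p = 0.0232). Cdh15, the cadherin of muscle, was at 1.95 and 1.65 against 2.39, 2.58 and 3.13, a difference of -0.834 (limma Benjamini-Hochberg adjusted p = 0.0296). All arrays were methylated at both islands. The 849 islands with a mean above 2 in the other tissues had a median difference of -0.196 in colon, with -0.560 and 0.199 as the 10th and 90th percentiles.

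The promoter island of Vcpkmt, a lysine methyltransferase of the chaperone VCP, was at -0.145 and 0.157 in colon and at 0.601, 0.808 and 1.13 elsewhere, a difference of -0.816 ± 0.147 (limma Benjamini-Hochberg adjusted p = 0.0233). Mns1, a structural protein of sperm flagella, was at -0.876 and -1.01 against a lowest other value of -0.518. Dph2 (diphthamide synthesis), Pthlh (parathyroid hormone-like hormone) and Ppp2cb (a catalytic subunit of protein phosphatase 2A) differed by -0.762, -0.687 and -0.671. These 4 were below 0 on the median other array too, with limma Benjamini-Hochberg adjusted p of 0.0310 to 0.0486. With scan day as a random block none of the 7 but Spdef was called.

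The next comparison asked where colon alone crossed both thresholds of the study. The colon mean was above 0.75 and each of the other 7 tissue means below 0 at 9 islands (0.0678% of all), of which 7 were also called. These 7 lay at Foxa2, Nrn1, Qk, Pitx1 (upstream), Nkx1-2, Zpbp and an unnamed island of 13 probes (mm9 chr4:152855668-152857517), where the colon arrays were at 1.14 and 0.779 and the highest other at 0.249. The uncalled ones were Irx2 and an unnamed island on chromosome 17, where the colon arrays were at 0.909 and 0.990 (limma Benjamini-Hochberg adjusted p = 0.0770). Only 2 islands crossed the other way (0.0151%), and neither was called. One lay upstream of Pdcd2, with colon at -0.101 and -0.107 and the others between -0.159 and 2.80. The other, on chromosome 13 without a gene name, had colon at -0.553 and -0.399 and the others between -0.181 and 2.41.

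The same counts were made for each other tissue. The pancreas crossed upwards at 2 islands and the brain at 1, against 9 in colon, while the remaining 5 tissues had 0. By the same fit 8 islands were called for pancreas and 0 for brain, kidney, liver, lung, muscle and spleen, whose counts at an unadjusted limma p under 0.05 were 126 to 566. Both arrays of a tissue lay above all the rest at 215 islands in pancreas and at 5 to 112 in these 6 tissues, against 514 in colon. A single array of colon did so at 1002 and 1123 islands and a single array of pancreas at 1141 and 1143, and of the first colon array's islands 51.3% were shared by the second, compared with 18.8% in pancreas. These tissues took part in each other's comparisons and no test was made between the counts. Outside colon and pancreas the 2 arrays of a tissue also differed in probe grid and scan day. The part of this in the counts was not tested.

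**Figure D4:**
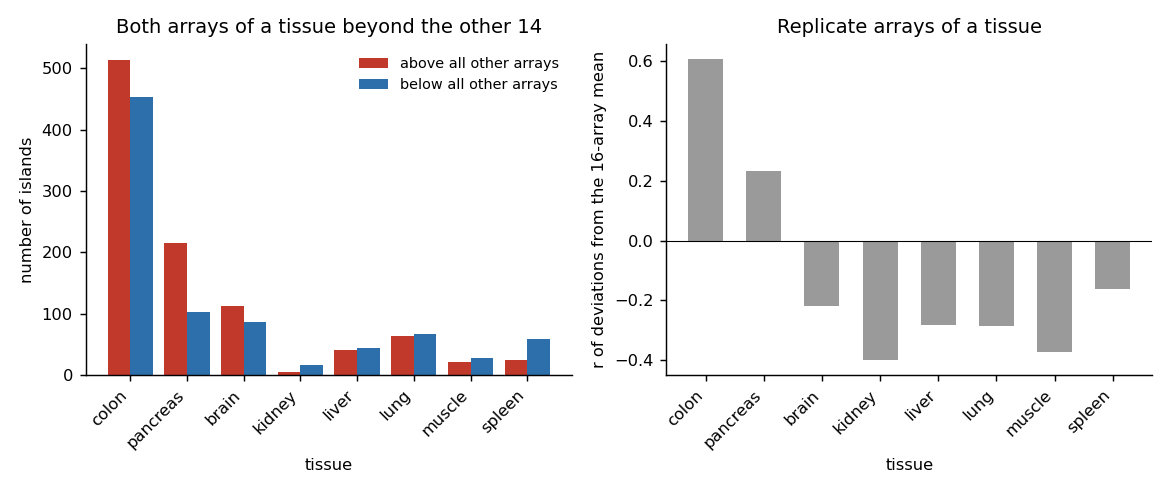
Left, number of islands (vertical axis) at which both arrays of a tissue lay above (red) or below (blue) the 14 arrays of the other adult tissues; right, correlation r between the deviations of its 2 arrays from the mean of all 16, for each of the 8 tissues. Colon has the highest counts, 514 above and 453 below, and the highest correlation, 0.607. In every tissue but colon and pancreas the 2 arrays differed in probe grid and scan day.

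Over the 100 higher islands the mean IMS was 1.17 in colon, 0.120 in pancreas, 0.0355 in spleen, 0.00799 in kidney and -0.108 to -0.0648 in lung, liver, muscle and brain. The highest of the other tissues was the pancreas at 30 islands, the spleen at 24 and the kidney at 14, and the muscle at 4. The colon value used here chose the islands, so it is a description.

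The gene lists asked whether the islands of a known cell type or pathway differed together in colon. The 17 lists held 550 scored islands, of which 11 were called higher and 1 lower (2.18%, against 0.806% of all islands). The lists were chosen with earlier results of these data known, so these shares are a description, and no set test was made. Of 44 islands at intestinal epithelial transcription factors (21 of 27 genes measured), 3 were higher, namely both Foxa2 islands and Gata4, and Spdef was lower. The list's median difference was -0.0730. Of 35 islands at lineage factors of kidney 3 were higher (Pax8, Irx1, Hoxd11), of 39 at those of pancreas and liver 2 (Mnx1, Pdx1), and of 31 at those of lung and spleen 2, both at Foxa2. Some genes stand in several lists.

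Of 30 islands at posterior Hox genes 1 was higher (Hoxd11), and of 36 at anterior and central Hox genes 2 (Hoxb4, Hoxb5), with median differences of 0.0229 and 0.214. Of 55 islands at genes often methylated in human colorectal tumours 1 was called (Gata4), with a median difference of 0.0335. The 23 islands at colon epithelium markers (16 of 35 genes measured) included 1 higher, at Ephb2, and 0 lower, with a median of -0.0803. Both colon arrays lay below all others at 4 of these 23 (against 3.41% of all islands), at Epcam, Ephb3, Krt19 and Lgr5. None of these islands was called. Both colon arrays also lay below all others at 8 of 79 islands of brain lineage factors and 6 of 82 of Wnt pathway genes. They did so at 5 of the 55 tumour gene islands, and at 0 to 3 islands in each remaining list. Epcam, the epithelial adhesion molecule, was chosen after its values were seen. At its island 4229 to 4593 bases past the start the IMS was 1.41 and 1.11 in colon and 1.82 to 3.504 elsewhere, and the difference of -1.60 was not called (limma Benjamini-Hochberg adjusted p = 0.0511).

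No island was called by limma at 9 lists, where the share over all islands was 0.806%. Of 82 islands at Wnt pathway genes, 5 were higher and 6 lower at an unadjusted p under 0.05, a threshold that 6.05% of all islands passed as higher and 4.54% as lower. Frizzled receptor Fzd5 was at 0.852 and 0.727 in colon and 0.463 to 1.61 elsewhere, and Fzd8 at -0.0167 and -0.125 and -0.466 to 0.222 elsewhere. Of 79 islands at lineage factors of brain, 2 were higher and 6 lower without adjustment. There Sox2 was at -0.158 and -0.148 in colon and -0.382 to -0.0326 elsewhere, and Nkx2-1 at -0.155 and -0.236 and -0.713 to -0.0939. Of 25 islands at those of muscle, 4 were higher and 2 lower without adjustment, and the difference at Lbx1, a homeobox factor of migrating muscle precursors, was -0.0803.

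Lists for other cell types of the colon wall had no call either. Of all islands 0.806% were called, a share at which lists this short would mostly hold no call. Without adjustment 6.05% of all islands were higher and 4.54% lower. Without adjustment 1 of 32 islands at gut mesenchyme and smooth muscle genes was higher and 1 lower by limma, and the differences at Foxf1 and Ptch1, a forkhead factor and the Hedgehog receptor, were -0.201 and -0.225. At 13 islands of enteric neural genes the unadjusted count was 0, with differences of -0.0409 at Ret and -0.248 at Gfra1, receptors of the GDNF pathway. At 25 islands of immune cell genes 0 were higher and 2 lower, with -0.107 at Tal1 and -0.273 at Runx1, factors of blood cells. The part of these cell types in the called islands was not tested.

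At 30 islands of imprinted genes 3 were higher and 7 lower without adjustment, and the median difference was -0.238. Of all islands, 6.05% were higher and 4.54% lower at that threshold. The 849 islands with a mean IMS above 2 in the other tissues had a median difference of -0.196. The Gnas and Dazl islands named here are among these. Gnas was at 2.53 and 2.15 in colon and 2.26 to 3.29 elsewhere, and Igf2 at -0.429 and -0.540 and -0.533 to 0.141. At 15 islands of germline genes 1 was higher and 0 lower, with a median of -0.305. Dazl was at 2.81 and 2.69 in colon and 2.82 to 4.03 elsewhere, and Dmrt1 at -0.0862 and -0.127 and -0.401 to 0.0999. At 19 islands of housekeeping genes 0 were higher and 2 lower without adjustment, with differences of -0.198 at Actb and -0.231 at Ywhaz.

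The 100 higher islands were then read on the 18 arrays that took no part in the fit, as a description. Their mean IMS was 1.21 and 1.12 on the colon arrays and -0.189 to 0.185 on the other adult arrays. On the embryos it was -0.131 to 0.00859, and 6 to 9 of the islands were above 0.75. On undifferentiated ES cells it was 0.0718, 0.132 and 0.247. The value of 0.132 is that of J1, whose log ratios had a correlation of 0.113 over probes with the Z-scores that the deposited table gives for the same array, against 0.894 or more on the other arrays, and which of the sources holds J1 was not tested. On ES cells differentiated in vitro the mean was 0.225 on the retinoic acid array, with 23 islands above 0.75. On the other differentiated arrays it was 0.412 to 0.455, with 31 to 35 islands above 0.75. Of all islands, 12.5% were above 0.75 on the retinoic acid array and 15.97% to 16.87% on these others. Both teratomas were at -0.0969 and -0.0270.

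The pancreatic cells gave the widest range, with 1 array each. Ex vivo β cells, sorted from mice with a Pdx1-GFP transgene, had a mean of 0.192, and 18 islands were above 0.75. In Min6, an insulinoma line, the mean was 0.951 (58 islands above 0.75) and in αTC, a glucagonoma line, it was 1.01 (69 islands). Over all islands, 19.7% and 23.2% were above 0.75 in these lines, against 12.39% and 11.96% on the colon arrays and 9.42% to 9.96% on the embryos. At the downstream Foxa2 island the ex vivo β cells had an IMS of 2.94, Min6 0.801 and αTC -1.17. The arrays of whole pancreas were at -0.48 and -0.237 there.

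**Figure D5:**
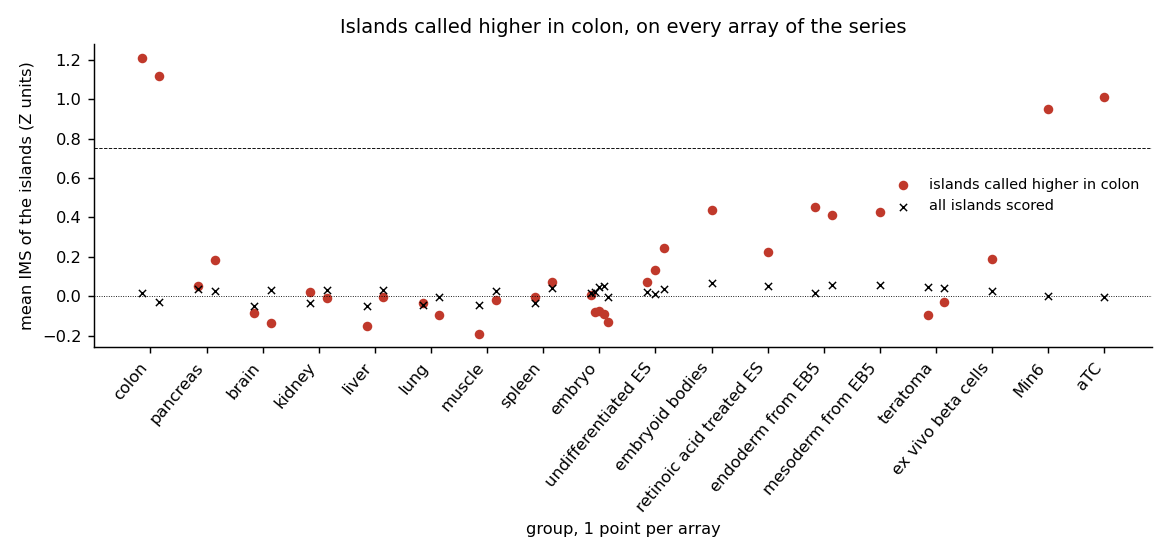
Mean IMS over the 100 islands called higher in colon (vertical axis, Z-score units) on each of the 34 arrays in red, grouped by sample type, with the mean over all scored islands as black crosses; dotted and dashed lines mark 0 and 0.75. The embryos lie at -0.131 to 0.00859, the ES cells differentiated in vitro at 0.225 to 0.455, and the lines Min6 and αTC at 0.951 and 1.01.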

How the data were processed

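Methylated DNA immunoprecipitation was measured on 34 two-colour Agilent arrays, 16 of them of adult tissue. The authors extracted each spot's intensity with Feature Extraction, using background subtraction and a linear normalization of the dyes, and the deposited scanner files give the log10 ratio of bound over input. A processed Z-score for each probe, deposited by the authors as a table, was used as an alternative score.

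Control spots and spots marked as outliers were left out, ratios were turned into Z-scores per array, and runs of probes present on every array, with gaps of at most 500 bases and at least 3 probes, were averaged. The Tm step of the study's methods was not run, and chromosomes X and Y were dropped. Positions are those of mm9, which the headers of 6 files name. Arrays were grouped by the tissue in their labels. Islands were tested with limma 3.58.1 (lmFit, contrasts.fit, eBayes; R 4.3.3), two-sided, with a Benjamini-Hochberg adjusted p under 0.05. On simulated data of 13273 islands, 200 of them changed by 1, this recovered 68.0%, and 2.86% of its calls were unchanged islands. The simulated noise was independent between arrays, with no other tissue difference and no scan-day or grid effect. These shares therefore do not give the rate of false calls on the real arrays. Other steps used Python 3.11.15, numpy 2.4.6 and pandas 2.3.3.

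Named islands are the 12 largest called differences in each direction with 1 gene name and both colon arrays beyond all others, the islands that crossed both thresholds, up to 4 called genes per list, and 2 uncalled genes where a list had no call. One gene that this rule picks is not reported here. Members and lists were chosen with earlier results of these data known. Alternatives for the standardisation, background correction, source, filters, arrays, test and batch are given in the closing section. Promoters came from a table of RefSeq sequences, in which 32 of 50 named genes were matched.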

Additional observations from a re-analysis of the deposited data

How the results depend on the processing

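As reported, 107 islands were called, and 12 of the 550 islands of the gene lists. With an adjusted p under 0.01 these became 36 and 5, with median and MAD in the Z-score 12 and 3, with log2 ratios in place of Z-scores 56, and with normexp background correction 3 and 0 (29 listed islands at an unadjusted limma p under 0.05). The authors' table and the filter on dim inputs left 4 listed islands each, at least 5 probes per island 7, and the filter on both channels 3. Male arrays gave 564 (368 higher, 196 lower) and 64, the 2-group limma fit 228, the methods' t-test 222 (180 higher, 42 lower) after Benjamini-Hochberg adjustment (1775 unadjusted), and all 34 arrays in the fit 238. Scan day as a random block gave 50, a term for the array grid 219 (178 higher, 41 lower) and 21, and arrays of the larger grid alone 953 (617 higher, 336 lower) and 91. Scan day, the grid and the filter on both channels were chosen after seeing the data. Leaving out 1 array gave 7 to 133 (1 to 14 listed), lowest without colon replicate 1, and leaving out 1 tissue 88 to 112. The colon's replicate difference had correlations of -0.17 to 0.13 with those of the other tissues, and over all pairs of tissues these ran from -0.32 to 0.467. Outside colon and pancreas the replicate number went with the probe grid and the scan day. The replicate block gave 101. Slide, scan day and software as fixed blocks could not be fitted.

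Both colon arrays lay beyond all others at 967 islands, which became 626 with MAD, 74 with normexp, 2180 with male arrays, 1893 with the larger grid, 573 with both channels filtered, and 988 to 2669 with 1 array left out. The 9 islands that crossed upwards became 2 with thresholds of -0.25 and 1, 104 with 0.25 and 0.5, 18 with MAD, 21 with log2, 3 with normexp, 3 with the authors' table, 5 with at least 5 probes, and 6 to 15 with 1 array left out. The 2 that crossed downwards became 0 and 11 with these thresholds, 6 with MAD, 6 with log2, 1 with the table, 1 with the filter on dim inputs, 0 with normexp, at least 5 probes or male arrays, and 0 to 3 with 1 array left out. Islands above all others outnumbered those below as reported (514 and 453), but not with MAD (260 and 366), log2 (355 and 541), the authors' table (312 and 370), the filter on dim inputs (370 and 493) or male arrays (823 and 1357). The cause of these changes was not tested. No named call changed sign. Of the 32 named called islands, 18 kept their call with scan day as a random block, 7 with MAD and 2 with normexp, and Dnm1 kept it in 45 of 45 settings. Because both colon arrays were alone on their scan day, the random block cannot separate scan day from colon, also where a call was kept.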
